A study of Homo sapiens with 4 samples.

Results

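At the FAM13A locus, 6 single-base variants, each tied by association studies to lung disease or lung function, were followed through a massively parallel reporter assay: rs1903003, rs2869967, rs6830970, rs2045517, rs4416442 and rs2609255. They were chosen by name, from their known associations, though with earlier results of these data known. They took up 72 of the 7270 oligonucleotides in the assay. Each variant had 12 oligonucleotides, which held both of its alleles in both orientations (F and RC) and in the 3 windows that the table calls L, C and R. No difference between the alleles of any of the 6 variants passed the test in either reporter library. Averaged over alleles, rs2045517 in window R and rs1903003 and rs4416442 in window C stood above the average tag in orientation F and below it in RC. The difference passed its test in both libraries. Such differences by orientation were common: 43.9% (minP) and 46.1% (SV40) of all windows tested passed. Among windows of the 6 variants 27.8% and 44.4% did. With SV40, rs6830970 in window C and orientation F held some of the lowest activities in the assay, and it was thinly represented in the plasmid pools.

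The assay was run in BEAS-2B, an established human bronchial epithelial cell line, as part of work on how variants of FAM13A associated with chronic obstructive pulmonary disease (COPD) act on gene regulation. Every plasmid had the same reporter backbone and carried either the minimal promoter (minP), called weak in the labels, or the simian virus 40 promoter (SV40), called strong. For each promoter 1 input library and 1 RNA library were sequenced, 4 libraries in all. Input libraries were plasmid pools amplified by PCR, and RNA libraries came from cells harvested 24 hours after transfection, with no treatment or genotype contrast between cells. Because each group held 1 library, errors below describe the spread between tags of 1 transfection, and no error between transfections could be had.

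In such an assay a candidate regulatory fragment is placed beside a promoter, and a short tag in the transcript names the fragment it came from. More tag in the RNA relative to the plasmid pool means more transcript per plasmid, and the same fragment with either allele shows whether the base matters in that setting. Work in lung epithelium has tied the protein that FAM13A encodes to the turnover of beta-catenin. Among the 6 variants, rs1903003, rs4416442 and rs6830970 are known from studies of COPD, rs2869967 and rs2045517 from studies of lung function or COPD, and rs2609255 from studies of lung fibrosis.

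On chromosome 4, in the coordinates of the deposited table, rs6830970 (A/G) lay at position 89777081, rs2609255 (G/T) at 89811195, rs4416442 (C/T) at 89866713, rs2869967 (C/T) at 89869332, rs2045517 (C/T) at 89870964 and rs1903003 (C/T) at 89886297. The sources used here do not name the genome build of these positions, so whether the variants are exonic or intronic was not analysed here. The 6 positions spanned 109216 bases, and 5 of the 6 changes were transitions, with rs2609255 the transversion. The nearest other assayed variant lay 61 bases from rs1903003 (rs1903004) and 64 bases from rs2869967 (rs2869968). For the other 4 the nearest neighbour was 239 to 629 bases away. None of the 6 constructs of any of these 6 neighbours passed the allelic test in either library, where the smallest adjusted p was 0.641 (permutation test, adjusted over all constructs).

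Each oligonucleotide was read through 27 to 33 tags of 11 bases, with a median of 30.5, and the 6 variants had 2192 of the 218526 tags. The tags below belong to the oligonucleotides on which the results turn most. They are the 3 tags with the most input reads summed over both libraries for each allele, and are shown because the reads of single tags are the raw values behind every mean that follows. The first set reads out rs2869967 in window L and orientation RC, the construct with the smallest allelic p among the 6 variants.
rs2869967 C tag 1: gggtcctagtt
rs2869967 C tag 2: acgcgcttagt
rs2869967 C tag 3: ttgtagagctt
rs2869967 T tag 1: gctacattacg
rs2869967 T tag 2: aagttctacgt
rs2869967 T tag 3: tatcccagttc
With minP, the C tags had 414, 293 and 217 input reads and 142, 18 and 26 RNA reads, and the T tags had 296, 268 and 179 input reads and 19, 28 and 12 RNA reads. With SV40, the C tags had 116, 182 and 192 input reads and 248, 13 and 31 RNA reads, and the T tags had 216, 213 and 294 input reads and 48, 11 and 5 RNA reads. These 6 most abundant tags overlapped between the alleles, and 1 C tag gave more RNA reads in both libraries than any of the T tags. Per input read, the 3 T tags summed gave less RNA than the 3 C tags summed in both libraries. That is opposite to the mean over all tags used for this construct, where T was the higher allele in both libraries.

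A second set reads out rs6830970 in window C and orientation F, which held the lowest activities of the 72 oligonucleotides in both libraries.
rs6830970 A tag 1: ttggccatctt
rs6830970 A tag 2: accgtggcaaa
rs6830970 A tag 3: actctgtggta
rs6830970 G tag 1: ggaccgaggtt
rs6830970 G tag 2: cagcttaggct
rs6830970 G tag 3: gtacggtgagc
With minP, the A tags had 56, 44 and 83 input reads and 14, 3 and 4 RNA reads, and the G tags had 61, 82 and 45 input reads and 0, 4 and 0 RNA reads. With SV40, the A tags had 80, 69 and 27 input reads and 4, 1 and 9 RNA reads, and the G tags had 98, 73 and 99 input reads and 0, 8 and 5 RNA reads. All of these tags had fewer RNA reads than the median tag of the 6 variants in each library. Even the best represented ones also had fewer input reads than the median tag, so their RNA reads alone do not give the output per plasmid.

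The minP libraries held 29398765 input and 11086933 RNA reads, and the SV40 libraries 26557676 and 24504694. Tags with at least 10 input reads were used: 2076 tags of the 6 variants with minP and 2057 with SV40, at medians of 102 input and 34 RNA reads per tag with minP and 103 and 79 with SV40. Of these tags, 10.8% had 0 RNA reads with minP and 5.98% with SV40, against 13.6% and 8.38% of all tags. For each tag, the tag ratio was the log2 of RNA over input, each count plus 1 and divided by its library total. Here, construct means the pair of oligonucleotides that differ in the allele alone. Its allelic difference was taken in alphabetical order, as the mean tag ratio of T minus C, of T minus G for rs2609255 and of G minus A for rs6830970, since the sources used here do not say which allele is the reference. All 36 constructs of the 6 variants had the 10 tags per allele that the test required.

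The allelic comparison asked whether either base of each variant drives more reporter RNA. With minP 0 of the 36 constructs passed an adjusted p of 0.05 in the two-sided permutation test of allele names over tags (100000 resamples, Benjamini-Hochberg over all constructs), where 1.47% of all 3469 constructs tested passed. With SV40 it was also 0 of 36, where 1.02% of 3439 passed. At an unadjusted p under 0.05 there were 2 of 36 constructs with minP and 3 of 36 with SV40, which are 5.56% and 8.33% of the members against 7.49% and 7.47% of all constructs. The smallest adjusted p of the 36 was 0.330 with minP and 0.102 with SV40.

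The measured differences ran from -0.89 to 1.10 on the log2 scale with minP and from -1.10 to 1.95 with SV40. Their median size was 0.26 with minP, a 1.20-fold difference, and 0.39 with SV40, a 1.31-fold difference, beside 0.33 and 0.37 over all constructs. The standard error of a single construct had a median of 0.50 with minP (range 0.31 to 0.67) and 0.53 with SV40 (range 0.26 to 0.92), and the difference was smaller than its own standard error in 26 of 36 constructs with minP and 24 of 36 with SV40. The allele later in the alphabet was the higher one in 17 of 36 constructs with minP and in 19 of 36 with SV40. The allele that was higher was the same in both libraries in 24 of 36 constructs, and was the same in orientations F and RC of a window in 11 of 18 pairs with minP and 13 of 18 with SV40. Across the 36 constructs, the allelic differences of both libraries had a Pearson r of 0.764 and a Spearman coefficient of 0.698, given as a description, since the libraries share the oligonucleotides and their tags.

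Of the variants known from lung function studies, rs2869967 had the largest allelic difference of the 6 with SV40. In window L and orientation RC, the 29 C tags that passed the input minimum with minP held 3967 input and 649 RNA reads, and the 28 T tags held 3182 and 1193. With SV40 the same construct had 2838 input and 1014 RNA reads for C and 3179 and 2820 for T. The T oligonucleotide thus gave more RNA from a like amount of input in both libraries. The tag ratio of C had a median of -1.80 with minP (quartiles -2.64 and -1.13, range -4.05 to 1.02) and that of T a median of -0.38 (quartiles -1.79 and 0.28, range -4.32 to 2.19). With SV40 the median was -2.84 for C (quartiles -4.02 and -2.07, range -6.77 to 1.21) and -0.32 for T (quartiles -2.46 and 0.69, range -5.50 to 2.19). The middle of the tag distribution was shifted, but the ranges of the alleles overlapped.

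The mean of T was above that of C by 1.05 ± 0.40 (SE over 29 and 28 tags) with minP, a 2.07-fold difference with a 95% interval of 0.27 to 1.83 on the log2 scale (p = 0.0106, adjusted p = 0.330, permutation test). With SV40 it was above by 1.95 ± 0.57, a 3.87-fold difference with an interval of 0.84 to 3.07 (p = 0.0013, adjusted p = 0.102, permutation test), so neither passed over all constructs. The SV40 difference was 1.31 from summed counts and 1.35 with tags at 0 RNA reads left out (adjusted p = 0.461 and 0.440, permutation test). The plasmid pools alone differed by -0.17 and -0.01 between these alleles, and the RNA counts alone by 0.88 and 1.94. In the 3 windows and both orientations together, the other 5 constructs of rs2869967 lay between -0.33 and 0.54 with minP and between -0.39 and 0.67 with SV40. T had the higher mean in 2 of 6 constructs with minP and in 4 of 6 with SV40, and both constructs of window R had C as the higher allele in both libraries.

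The other variant known from lung function, rs2045517, had T minus C differences of -0.37 to 0.61 with minP and -0.15 to 0.78 with SV40. Its construct with the smallest p was L RC with minP, at 0.54 ± 0.35 (SE over 32 C and 29 T tags, p = 0.130, adjusted p = 0.818, permutation test). With SV40 it was R RC, at 0.78 ± 0.61 (27 C and 32 T tags, p = 0.201, adjusted p = 0.842, permutation test). In that construct the input counts alone differed by -0.45 and the RNA counts alone by 0.33, so more of the difference lay in the plasmid pool than in the RNA, and summed counts gave a difference of 0.041. T was the higher allele in 5 of 6 constructs with SV40 and in 4 of 6 with minP, and none of these differences passed the test.

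Of the variants known from COPD, rs6830970 had its smallest p in window R and orientation F, where A was the higher allele. There the 27 A tags with minP held 3531 input and 1634 RNA reads, against 3772 and 1289 for the 30 G tags. With SV40 the 28 A tags held 3794 input and 3471 RNA reads, against 4228 and 2952 for the 31 G tags. The tag ratio had a median of 0.28 for A and -0.61 for G with minP, and of -0.26 and -1.17 with SV40. As G minus A, the difference was -0.89 ± 0.39 with minP, where A was 1.86-fold higher (p = 0.0289, adjusted p = 0.540, permutation test). With SV40 it was -1.10 ± 0.45, where A was 2.14-fold higher (p = 0.0193, adjusted p = 0.491, permutation test). From summed counts the difference was smaller, at -0.44 with minP and -0.39 with SV40. In orientation RC of the same window the differences were 0.07 ± 0.54 and -0.11 ± 0.57, so the side of A in orientation F had no counterpart there beyond the spread between tags. The largest difference of rs6830970 with minP was in window C, orientation RC, at 1.10 ± 0.63 over 19 A and 21 G tags (p = 0.0848, adjusted p = 0.749, permutation test), and it was 0.30 ± 0.92 with SV40.

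For rs1903003, T was the higher allele in window R, orientation F. With minP, C had 4376 input and 1324 RNA reads over 30 tags and T had 4617 and 1849 over 30 tags. With SV40, C had 4713 and 2972 over 31 tags and T had 4112 and 4582 over 30 tags. T stood higher by 0.81 ± 0.48 with minP (1.75-fold, p = 0.0944, adjusted p = 0.773, permutation test) and by 1.19 ± 0.44 with SV40 (2.28-fold, 95% interval 0.32 to 2.06, p = 0.0094, adjusted p = 0.379, permutation test). With SV40 the input counts alone differed by -0.26, the opposite way, and the RNA counts alone by 0.94. The other 5 constructs of rs1903003 lay between -0.37 and 0.39 with minP and between -0.63 and 0.46 with SV40.

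For rs4416442, no construct came near the threshold. The smallest p was in L RC in both libraries, where C was the higher allele: as T minus C, the difference was -0.59 ± 0.43 with minP (p = 0.181, adjusted p = 0.841, permutation test) and -0.50 ± 0.42 with SV40 (p = 0.243, adjusted p = 0.860, permutation test). Both constructs of window R with SV40 were almost level, at 0.01 ± 0.62 each. These errors would leave a difference of 2-fold, which is 1 on the log2 scale, within the 95% interval of these window R constructs.

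The lung fibrosis variant rs2609255 had its smallest p in window C, orientation RC. G had 5831 input and 2481 RNA reads with minP over 30 tags, and T had 7385 and 3945 over 32 tags. With SV40 the values were 5740 and 5933 for G and 6730 and 8923 for T, over the same numbers of tags. T was higher by 0.70 ± 0.39 with minP (1.62-fold, p = 0.0755, adjusted p = 0.724, permutation test) and by 0.74 ± 0.42 with SV40 (1.67-fold, p = 0.0806, adjusted p = 0.733, permutation test). The input counts alone also put T above G here, by 0.42 with minP and 0.27 with SV40. In window L and the same orientation, G was the higher allele instead, by -0.78 ± 0.59 and -0.87 ± 0.75 as T minus G.

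Averaged over its 6 constructs, no variant passed either (permutation test within constructs, Benjamini-Hochberg over 606 variants, where 1.82% passed with minP and 1.32% with SV40). With minP the mean T minus C difference was 0.11 ± 0.19 for rs1903003, 0.16 ± 0.20 for rs2045517, 0.09 ± 0.18 for rs2869967 and -0.14 ± 0.22 for rs4416442. It was 0.01 ± 0.20 (T minus G) for rs2609255 and 0.01 ± 0.21 (G minus A) for rs6830970. The bound of any 95% interval farthest from 0 was 0.58 with minP, so a mean difference over windows and orientations above 1.49-fold lay outside every interval in that library. With SV40 the means were 0.11 ± 0.19 for rs1903003, 0.40 ± 0.22 for rs2045517, 0.47 ± 0.22 for rs2869967, -0.15 ± 0.25 for rs4416442, -0.25 ± 0.23 for rs2609255 and -0.08 ± 0.24 for rs6830970.

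The mean of rs2869967 with SV40 was the only one with an unadjusted p under 0.05, which 1 of 6 variants had with SV40 and 0 of 6 with minP, beside 8.25% and 6.93% of all variants (T over C 1.38-fold, p = 0.0324, adjusted p = 0.562, permutation test). The interval bound farthest from 0 with SV40 was 0.89, which is 1.85-fold. Split by orientation, rs2869967 stood at 0.66 ± 0.32 in RC (p = 0.0440, adjusted p = 0.473, permutation test) and at 0.28 ± 0.29 in F with SV40. None of the 6 variants passed in either orientation, where 1.5% (F) and 3% (RC) of all variants passed with SV40, and 2.16% and 2.82% with minP.

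Whether the allelic difference itself depended on the promoter was tested on tags seen in both plasmid pools. Of the 36 constructs, 35 had enough shared tags, rs6830970 in C RC being the exception, and 0 of 35 passed (permutation test, two-sided, Benjamini-Hochberg, 0.061% of 3278 constructs passed). The allelic difference with minP minus that with SV40 ran from -0.90 to 0.53, with a median standard error of 0.37. Of the 35, 2 constructs had an unadjusted p under 0.05, beside 6.07% of all constructs, and both belonged to rs2869967: C F at -0.90 ± 0.40 (p = 0.0292, adjusted p = 0.724) and L RC at -0.89 ± 0.37 (p = 0.0205, adjusted p = 0.664, permutation test). With 1 library per promoter, this test sets library against library, which is not a test of the promoters.

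The activity of an oligonucleotide was its mean tag ratio relative to that of every passing tag in the same library, so that 0 is the average tag. The table names no control sequence. Activity is a description here and had no test. With minP, 4 of the 72 oligonucleotides lay at least 2-fold above the average tag, 5.56% of the members where 9.28% of all 7006 oligonucleotides did, and 3 lay at least 2-fold below it, where 15.4% did. With SV40, 9 lay at least 2-fold above, 12.5% of the members beside 12.9% of all 6962, and 7 at least 2-fold below, 9.72% beside 18.8%. The median activity was 0.15 in both libraries, beside 0.10 over all oligonucleotides in each. These counts moved with the settings, and the average tag was taken anew under each. With a pseudocount of 0.5, 11 oligonucleotides lay at least 2-fold above with minP. With tags at 0 RNA reads left out, 1 lay above and 1 below with minP, and 4 lay below with SV40. The 3 first counted as below with minP then had under 10 tags and were not counted, so the 1 below was another. Shares of all oligonucleotides under these settings are not given here. As first counted, all 4 that were at least 2-fold above with minP were so with SV40, and the 3 below with minP were below with SV40. Over the 72 oligonucleotides the activities of both libraries had a Pearson r of 0.915, and those of both alleles over 36 constructs an r of 0.720 with minP and 0.764 with SV40. These correlations are descriptions over oligonucleotides that share tags, sequence or both.

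The highest activities came from rs2869967, rs2045517, rs1903003 and rs2609255. With minP the 3 highest were rs2869967 C in R RC at 1.27 ± 0.33 (2.41-fold above the average tag), rs2045517 C in R F at 1.09 ± 0.23 (2.13-fold) and rs2869967 T in R RC at 1.06 ± 0.20 (2.08-fold). The fourth was rs2609255 T in C RC at 1.02 ± 0.18. With an input minimum of 50, rs2869967 C in R RC stood at 0.68, below rs2869967 T in R RC at 1.24 and rs2045517 C in R F at 1.18. With tags at 0 RNA reads left out, these stood at 0.81, 0.59 and 0.63 in that order, each under 2-fold. None of these 3 oligonucleotides had passing tags at 0 RNA reads with minP. Their own tags were therefore unchanged, and it was the average tag of the library that rose. With SV40 the highest were rs1903003 C in C F at 1.44 ± 0.21 (2.71-fold), rs2045517 T in R F at 1.40 ± 0.33 (2.64-fold) and rs1903003 T in C F at 1.38 ± 0.16 (2.60-fold). In C F of rs1903003 and R RC of rs2869967 both alleles were high together, and their T minus C differences lay between -0.21 and 0.01 in both libraries. Even the highest of these stood at the 95.2 percentile of all oligonucleotides with minP.

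At the lower end, rs6830970 in window C had the lowest values of the 6 variants. In orientation F, the A oligonucleotide had 616 input and 52 RNA reads with minP over 19 tags, and 598 and 31 with SV40 over 17 tags. The G oligonucleotide had 766 input and 93 RNA reads with minP over 21 tags, and 763 and 130 with SV40 over 22 tags. Over all listed tags, those below the input minimum included, the RNA reads of G came to 192 (minP) and 415 (SV40) beside 790 and 793 input reads. Of these RNA reads, 71 (minP) and 138 (SV40) came from a single tag with 0 input reads in both libraries, so the sums do not give output per plasmid. Those of A came to 52 and 35 beside 660 and 634 input reads. Activities were -1.51 ± 0.28 for A and -1.43 ± 0.41 for G with minP, 2.86-fold and 2.70-fold below the average tag. With SV40 they were -2.58 ± 0.24 and -2.24 ± 0.38, 5.97-fold and 4.74-fold below, and A lay at the 0.905 percentile of all oligonucleotides. With SV40, 0 of the 17 A tags and 2 of the 22 G tags were above the library mean. With minP, 3 of the 19 A tags and 5 of the 21 G tags were. Among the tags that passed the input minimum both alleles were low in both libraries. The SV40 value of G was -1.44 with tags at 0 RNA reads left out and -1.58 with an input minimum of 1.

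These 4 oligonucleotides of window C were also thin in the input: between 14 and 22 of their 29 to 31 tags passed the input minimum, and their input reads stood between the 8.33 and 15.5 percentiles of all oligonucleotides. Of the passing A tags in C F, 52.6% had 0 RNA reads with minP (95% Wilson interval 31.7% to 72.7%) and 29.4% with SV40 (13.3% to 53.1%), intervals that cover counting error only. For G in C F the shares were 57.1% with minP and 50% with SV40. In C RC they were 63.2% and 57.1% for A, and 19.0% in each library for G. With at least 50 input reads per tag, none of the 4 kept 10 tags. Over all 72 oligonucleotides, activity and the log2 of input reads per tag had a Pearson r of 0.553 with minP and 0.564 with SV40, although input also enters the ratio as its denominator. The part of low input in these low activities was not tested. Reads amplified by PCR need not be independent molecules, and the sources used here do not say whether molecular identifiers were used.

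The same window in orientation RC was less uniform. A was at -1.08 ± 0.49 with minP and -1.40 ± 0.76 with SV40, and G at 0.02 ± 0.40 and -1.10 ± 0.52. The other low values belonged to rs2869967. With SV40 its C allele stood at -1.89 ± 0.42 in C F (3.70-fold below) and at -1.81 ± 0.40 in L RC (3.51-fold below), and its T allele at -1.33 ± 0.46 in C F. The input of these 3 oligonucleotides lay nearer the middle, at the 37.6 to 52.5 percentiles of all oligonucleotides.

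By variant, the median activity over 12 oligonucleotides with minP was highest for rs2045517 (0.42, range -0.32 to 1.09) and rs2609255 (0.40, range -0.28 to 1.02). It was 0.16 for rs2869967 (range -0.97 to 1.27) and rs4416442 (range -0.58 to 0.99), 0.11 for rs1903003 (range -0.49 to 0.85) and -0.04 for rs6830970 (range -1.51 to 0.84). With SV40 rs2045517 was again highest, at 0.57 (range -0.93 to 1.40), followed by rs1903003 at 0.33 (-0.43 to 1.44). Next came rs2609255 and rs2869967 at 0.19 each (-0.60 to 1.23 and -1.89 to 1.24), then rs4416442 at 0.05 (-0.54 to 0.95) and rs6830970 at -0.43 (-2.58 to 0.67). The ranges of all 6 overlapped in both libraries.

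Each window of a variant was read in both orientations, and the difference between them, F minus RC averaged over alleles, did pass the test for some windows. With minP it passed in 5 of 18 windows, 27.8% where 43.9% of all 1723 windows tested passed, and with SV40 in 8 of 18, 44.4% where 46.1% of 1714 passed (permutation of orientation names over tags within allele, two-sided, Benjamini-Hochberg). All 5 that passed with minP passed with SV40 too, in the same direction. A difference by orientation was therefore about as common here as in the whole assay with SV40, and the lower share with minP was not tested against it. With tags at 0 RNA reads left out, 5 of 18 windows passed with SV40 and 4 of 17 with minP. With an input minimum of 1 it was 6 of 18 with SV40 and 5 of 18 with minP. With one of 50 it was 6 of 17 and 5 of 17. Shares of all windows under these settings are not given here. The sources used here do not say whether F and RC of a window hold the same stretch of sequence.

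Orientation F was the higher one in 3 of these 5 windows. In window R of rs2045517 the activity was 1.002 in F and -0.18 in RC with minP, a difference of 1.18 ± 0.33 (2.27-fold, adjusted p = 0.00194, permutation test), and 1.30 and -0.54 with SV40, a difference of 1.84 ± 0.36 (3.58-fold, adjusted p = 6.28e-05, permutation test). In window C of rs1903003 it was 0.85 and -0.48 with minP, a difference of 1.33 ± 0.31 (2.51-fold, adjusted p = 0.000322, permutation test), and 1.41 and -0.16 with SV40, a difference of 1.57 ± 0.32 (2.96-fold, adjusted p = 6.28e-05, permutation test). In window C of rs4416442 it was 0.91 and -0.33 with minP, a difference of 1.24 ± 0.36 (adjusted p = 0.00247, permutation test), and 1.30 ± 0.43 with SV40 (adjusted p = 0.00636, permutation test). In each of these windows the orientation that was higher was so for both alleles in both libraries.

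Input reads also differed by orientation in these 3 windows. The F oligonucleotides of rs1903003 in window C held 8848 (C) and 10103 (T) input reads with minP, against 2173 and 3056 in RC. Those of rs2045517 in window R held 4356 (C) and 4200 (T), against 2102 and 2128 in RC, and those of rs4416442 in window C held 4795 (C) and 4658 (T), against 1899 and 1559. The orientation with the higher activity had more input each time, and the part of that in the result was not tested.

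Orientation RC was the higher one in the other 2 windows that passed in both libraries. In window C of rs2609255, F minus RC was -0.87 ± 0.32 with minP (1.83-fold, adjusted p = 0.0187, permutation test) and -1.03 ± 0.34 with SV40 (2.05-fold, adjusted p = 0.00832, permutation test). There the RC oligonucleotides had more input as well, with 5831 (G) and 7385 (T) reads with minP against 3138 and 2847 in F. In window C of rs2869967 it was -0.92 ± 0.36 with minP (1.90-fold, adjusted p = 0.0285, permutation test) and -1.76 ± 0.43 with SV40 (3.39-fold, adjusted p = 0.000521, permutation test). In the latter window the low F oligonucleotides had 2270 (C) and 2224 (T) input reads with minP and the RC ones 2936 and 3636. With SV40 the order of input was not the same for both alleles, at 2694 for C and 1950 for T in F and 2556 and 3213 in RC.

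With SV40 but not minP, window R of rs2609255 passed at -1.11 ± 0.38, window C of rs6830970 at -1.16 ± 0.51 and window L of rs2869967 at 0.84 ± 0.36 (adjusted p = 0.0101, 0.0417 and 0.0491, permutation test). With minP these were -0.71 ± 0.32, -0.94 ± 0.40 and 0.47 ± 0.33, the same direction each time (adjusted p = 0.0585, 0.0502 and 0.251, permutation test), and the difference between the libraries was not tested. In window L of rs2869967 the orientation difference rests on the low C oligonucleotide in RC, at -1.81 with SV40, since T in RC, at 0.14, lay between the F values of -0.33 for C and 0.33 for T. With SV40 that window and orientation also had the largest allelic difference of the 6 variants.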

How the data were processed

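Read counts per tag were used as deposited in 1 table; per the labels they came from single reads of 36 nt of plasmid pools and of reporter cDNA. The sources used here do not give how the authors matched, filtered or deduplicated reads, nor the sequences and lengths of the oligonucleotides or the meaning of the window letters. The names of 6 of the 72 oligonucleotides carry a lower-case l where the table's window column has L, and that column was used. Tags needed at least 10 input reads and each allele at least 10 tags; a pseudocount of 1 was added to each count. Allelic, promoter and orientation differences were fitted over all constructs of the table and tested by permutation over tags (100000 resamples, two-sided, smallest p 1e-05, Benjamini-Hochberg, threshold 0.05). Standard errors are over tags, and 95% intervals are 1.96 standard errors either side. The count models used for replicate libraries were not run, because each group had 1 library. The rule for named constructs was the one with the smallest p per variant and library, and the 3 highest and 3 lowest activities. Others were named after their values were seen. The variants and lists were chosen with earlier results of these data known. Software was Python 3.11.15, NumPy 2.4.6, pandas 2.3.3, SciPy 1.17.1 and Numba 0.67.0. Code was tested on simulated data. Alternatives changed the input minimum (1 or 50), the pseudocount (0.5) or the statistic (ranks, summed counts), dropped tags without RNA reads, or used RNA or input counts alone.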

Additional observations from a re-analysis of the deposited data

Results flagged for a closer look

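Of the 8 tags of the 6 variants that had 0 input reads in both libraries, 6 had more than 3 RNA reads in both RNA libraries, a signal outside the tags used for the comparisons, and above what a count of 0 allows (3 counts). Their RNA reads ran from 10 to 71 with minP and from 20 to 138 with SV40. They belonged to rs4416442 (C in L F and in R F), rs6830970 (G in C RC and in C F), rs2869967 (C in R RC) and rs2045517 (T in R F). Over the whole table, 1106 of 1880 such tags (58.8%) had RNA reads of this kind. The cause was not tested.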

How the results depend on the processing

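Under every alternative run, 0 of the constructs, variant means and promoter differences of the 6 variants passed the adjusted threshold (permutation test). The adjusted p of rs2869967 in L RC ranged from 0.222 to 0.861 with minP and from 0.0725 to 0.991 with SV40, the highest values from input counts alone, where no allelic difference in RNA enters. Counts of oligonucleotides at least 2-fold above the average tag with minP, 4 as reported, were 1 with an input minimum of 1, 11 with a pseudocount of 0.5 and 1 with tags at 0 RNA reads left out. The average tag was taken anew under each setting. Shares of all oligonucleotides under these settings are not given here, so the changes are not a result about the 6 variants. Those at least 2-fold below with minP, 3 as reported, were 1 with an input minimum of 50 and 1 with tags at 0 RNA reads left out. Under each of these settings the 3 reported had under 10 tags and were not counted. With SV40, those below went from 7 to 4 under each of the same settings. With an input minimum of 50, the 4 oligonucleotides of rs6830970 in window C and rs4416442 C in L F had under 10 tags in both libraries. With tags at 0 RNA reads left out, rs6830970 A in C RC did with SV40. Windows that differed by orientation with SV40 went from 8 to 5 with tags at 0 RNA reads left out.

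Some means per variant, none of which passed the test, changed sign. With minP, rs6830970 was -0.061 with an input minimum of 1, -0.35 with one of 50 and -0.17 with tags at 0 RNA reads left out, and rs2045517 was -0.022 with a minimum of 50, -0.025 from summed counts and -0.024 from input alone. With tags at 0 RNA reads left out, rs1903003 was -0.065, rs2609255 -0.10 and rs4416442 0.23, the last 0.048 from summed counts. With SV40, rs6830970 was 0.080 with tags at 0 RNA reads left out and 0.22 from summed counts, and rs2609255 was 0.048 from summed counts and 0.087 from input alone. Input alone gave -0.15 for rs2869967, -0.21 for rs2045517 and 0.041 for rs4416442. Input counts alone hold no RNA and form the denominator of the tag ratio. Their sign is therefore not another estimate of the allelic difference. For the constructs with the smallest p, every other alternative kept the sign. Input alone had the opposite sign for rs1903003 in R F (-0.10 with minP, -0.26 with SV40) and rs2045517 in L RC with minP (-0.042). The same held for rs2045517 in R RC with SV40 (-0.45), rs2869967 in L RC (-0.17 and -0.014) and rs4416442 in L RC with minP (0.23). The cause of the sign changes in the means per variant under the other settings was not tested. No paired analysis was possible because each group held 1 library, so there were no replicate libraries to pair; tags shared by both pools were paired in the promoter comparison. The standard error of 1 construct had a median of 0.50 in the minP library and 0.53 in the SV40 library.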
